A study of Mus musculus with 7 samples.

Results

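The genes described here are 10 regulators and hormones of the endocrine pancreas: the transcription factors Pax4, Pax6, Nkx2-2, Nkx6-1, Isl1 and Pdx1, and the hormone genes Ins1, Ins2, Gcg and Sst. They are 10 of 21951 protein-coding genes in GENCODE M21, and their data are the H3K27ac peaks that overlap each gene body or the 10 kb on either side of it. Such peaks were found at Pax6 (6 peaks) and Isl1 (1 peak), which is 7 of the 66841 merged peaks of the study. Pax4, Nkx2-2, Nkx6-1, Pdx1, Ins1, Ins2, Gcg and Sst had none. The question put to the data was whether NeuroD1, a factor known from both neurons and islets, was accompanied by H3K27ac at these endocrine genes when it was switched on in stem cells.

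H3K27ac was measured by ChIP-seq in A2Lox mouse ES cells that carry the coding sequence of murine NeuroD1 with an HA tag behind a promoter switched on by doxycycline. Uninduced cells (0 h) were compared with cells given 500 ng/ml doxycycline for 12 h and 48 h, with 2 replicates (R1 and R2) per time point. Cells at 0 h carry the same transgene without doxycycline, and the design holds no cells given doxycycline without it, so doxycycline and NeuroD1 cannot be told apart here. The cells had been grown on inactivated feeder fibroblasts and then passaged without them. Nothing states whether R1 and R2 came from separate cultures, so p-values measure the spread between these libraries, which may be technical.

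NeuroD1 is a basic helix-loop-helix transcription factor that pairs with E proteins and binds short CANNTG motifs called E-boxes. It is known as an activator of the insulin gene and is needed for the formation of islets as well as for the maturation of neurons. In the developing pancreas it acts after Neurog3, alongside Pax4, Pax6, Nkx2-2, Nkx6-1, Isl1 and Pdx1, which direct islet cells towards their hormone-producing types. Nucleosomes carrying H3K27ac are typical of regulatory DNA in use, at gene starts as well as at distal elements.

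The sequences that carry the member peaks with a change in H3K27ac and an E-box are shown here, together with those of hormone promoters that hold an E-box but had no peak. Sequences are from GRCm38.p6 (mm10), 5′ to 3′, and capitals mark the E-box CAGATG, its reverse complement CATCTG or the palindromic E-box CAGCTG. The window around the centre of the Isl1 peak (chr13:116309918-116310217, minus strand) holds CAGATG at its end far from the gene. The E-boxes of 2 Pax6 peaks are shown with their flanks only (chr2:105673865-105673894 and chr2:105679826-105679855, plus strand).
Isl1 peak: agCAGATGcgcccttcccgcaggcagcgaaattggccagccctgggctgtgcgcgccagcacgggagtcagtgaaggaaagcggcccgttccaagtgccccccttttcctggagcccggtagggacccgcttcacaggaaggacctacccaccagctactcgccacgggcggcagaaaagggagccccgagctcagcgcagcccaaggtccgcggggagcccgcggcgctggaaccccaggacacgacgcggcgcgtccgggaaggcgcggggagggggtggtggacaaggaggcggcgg
Pax6 peak gained at 48 h: gcctgcagcgtcCATCTGgctccaactccc
Pax6 peak lost from 12 h to 48 h: aagggcggtgagCAGATGtgtgagatcttc

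The promoters of glucagon (Gcg, chr2:62483654-62483903, minus strand) and insulin 1 (Ins1, chr19:52264047-52264296, plus strand) are given as the 250 bases before the RefSeq transcript start. Gcg holds CAGATG at 2 places, with first bases at -139 and -83, and Ins1 holds CATCTG at -84. No merged H3K27ac peak lay within 10 kb of either gene.
Gcg promoter: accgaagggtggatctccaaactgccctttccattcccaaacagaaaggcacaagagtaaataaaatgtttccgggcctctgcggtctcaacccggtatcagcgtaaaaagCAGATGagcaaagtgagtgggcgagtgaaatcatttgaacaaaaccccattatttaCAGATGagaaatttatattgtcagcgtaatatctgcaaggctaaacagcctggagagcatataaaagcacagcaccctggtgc
Ins1 promoter: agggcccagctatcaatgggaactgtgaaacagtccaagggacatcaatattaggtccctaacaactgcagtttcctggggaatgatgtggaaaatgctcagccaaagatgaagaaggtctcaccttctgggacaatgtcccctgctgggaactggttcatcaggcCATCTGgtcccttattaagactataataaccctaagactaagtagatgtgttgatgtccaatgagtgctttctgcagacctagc

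Reads in merged peaks totalled 6283103 to 8112895 per library, and the median peak held 30.5 reads on average. Scaled counts put every library on the mean of these totals. R1 and R2 differed most at 48 h, with a chi-square of 5.54 per degree of freedom over all peaks, against 1.79 at 0 h and 1.42 at 12 h. Peaks were present at 6 of 6 stem cell markers (Pou5f1, Nanog, Sox2, Esrrb, Zfp42 and Tfcp2l1), whose summed scaled counts were 19740 to 19932 at 0 h, 21978 to 22211 at 12 h and 13362 to 16847 at 48 h. For fibroblast markers the sums were 377 to 386, 401 to 433 and 410 to 422, from 4 of 6 genes, and Twist2 and Thy1 had no peak. Of these 4, edgeR called 2 gained (Col1a2 and Col3a1) and 1 lost (Col1a1) at 12 h vs 0 h and 2 gained (Pdgfrb and Col1a2) and 0 lost at 48 h vs 0 h, with Col1a1 at a log2 fold change of -0.50 (edgeR adjusted p = 0.0506). Their part in the results was not tested. At the endogenous Neurod1 gene, the peak chr2:79456988-79460121 held 70 and 60 reads before induction, 359 and 398 after 12 h and 168 and 312 after 48 h. The neighbouring peak chr2:79454052-79456929 held 103 and 85, then 232 and 220, then 249 and 291 reads. Reads of the transgene and of the endogenous gene cannot be told apart in coding exons.

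All 66841 peaks were tested with edgeR's quasi-likelihood method and Benjamini-Hochberg adjustment, and a peak was called gained or lost at an adjusted p under 0.05. Across all peaks, 9.93% gained and 6.03% lost H3K27ac at 12 h vs 0 h, and 8.56% gained and 5.45% lost it at 48 h vs 0 h. From 12 h to 48 h, 10.7% gained and 8.43% lost it. Gains made up 62.2% of all calls at 12 h with library totals, 74.1% with TMM factors and 78.6% with DESeq2. The share was 50.5% in a model of the 4 compared libraries alone, of 21403 calls in place of 10666. At 48 h vs 0 h the shares were 61.1%, 70.5%, 78.6% and 69.9% in the same order.

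Most of the endocrine genes lay in stretches without merged H3K27ac peaks at all 3 time points. A merged peak lay within 10 kb of 2 of the 10 members, against 73.7% of all protein-coding genes. The distance from gene body to nearest merged peak was 14.6 kb for Sst (somatostatin), 18.0 kb for Pax4 and 30.5 kb for Pdx1, a factor required for the formation of the pancreas and for insulin transcription. It was 47.5 kb for Nkx6-1, 50.1 kb for Gcg and 66.7 kb for Ins2, the second insulin gene. Of all genes, 11.9% lay more than 50 kb from a peak. The nearest peak to Nkx2-2, a homeobox factor of islet cells, was 97.7 kb away. Ins1 was the most isolated member with 308 kb, and 99.0% of genes had a peak at that distance or nearer. The body of Ins2 in GENCODE M21 spans 64726 bp through long transcripts, so its window was wider than the hormone-coding part. Peaks were called against Input and merged over the libraries, and a region without one holds no counts in the table, so weak H3K27ac there was not detectable.

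**Figure D1:**
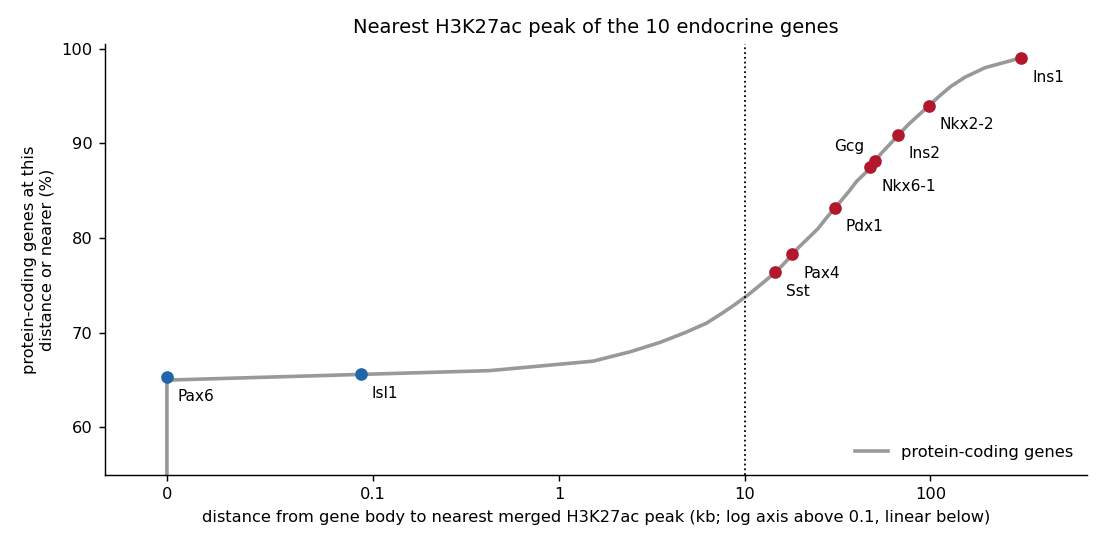
Distance from each gene body to the nearest merged H3K27ac peak (kb, log axis above 0.1 kb and linear below) against the percent of protein-coding genes at that distance or nearer, with the grey line for the protein-coding genes on chromosomes with peaks, blue points for members with a peak within 10 kb, red points for those without and a dotted line at 10 kb. Pax6 and Isl1 lie at the left, and the other 8 members run from Sst at 14.6 kb to Ins1 at 308 kb.

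At 12 h vs 0 h, no member peak was called. By edgeR, 0 of the 7 peaks were gained or lost, 1 had an unadjusted p under 0.05, and DESeq2 called 0. The median log2 fold change of the 7 peaks was -0.28, against -0.08 over all peaks. At 48 h vs 0 h, edgeR called 1 gained and 1 lost peak, both at Pax6, 4 peaks had an unadjusted p under 0.05, and DESeq2 called 0. The median log2 fold change was 0.27, against -0.04 over all peaks. From 12 h to 48 h, the gained peak was that of Isl1 and the lost peak was at Pax6, and DESeq2 called 1, the Isl1 peak. The median log2 fold change was then 0.22, against -0.03 over all peaks. A single peak of 7 in each direction stood beside background shares of 5.45% to 10.7% in those 2 comparisons. The share of all peaks with an unadjusted p under 0.05 in edgeR is not reported here, so the counts at that threshold have no background beside them.

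Isl1, a LIM homeobox factor of islet cells and of motor and sensory neurons, had a single merged peak, and it gained H3K27ac between 12 h and 48 h. The peak (chr13:116309783-116310351) is 569 bp wide, has a GC content of 63.6% and begins 94 bp upstream of the gene, over its promoter. Its scaled counts were 20.5 (R1) and 24.4 (R2) before induction, 22.5 and 14.7 after 12 h, and 64.4 and 31.8 after 48 h, from 16 to 58 reads per library. Both 48 h libraries were above the other 4, and R1 at 48 h stood well above R2. The 0 h and 12 h libraries overlapped.

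The change at Isl1 from 12 h to 48 h was 1.35 ± 0.37 (log2, SE, n = 2 and 2; edgeR adjusted p = 0.0144). DESeq2 and the other 6 alternatives that kept all libraries of that comparison called it as well, with an adjusted p of 0.0039 to 0.0443. Without R1 at 48 h it was 0.79 with an adjusted p of 0.168, and without R1 or R2 at 12 h the adjusted p was 0.0586 or 0.22. At 48 h vs 0 h the change was 1.07 ± 0.37 (edgeR adjusted p = 0.0512), just short of the threshold. It passed with TMM factors (0.0346), with the replicate number as a block (0.0388) and with an offset on GC content (0.00148), but not with DESeq2 (0.183), with only the 4 libraries compared (0.0751) or with the filter on low counts (0.0547). Without R1 at 48 h the change was 0.50 (edgeR adjusted p = 0.391), and without R2 at 48 h it was 1.52 (edgeR adjusted p = 0.000147). At 12 h vs 0 h the log2 fold change was -0.28 ± 0.41 (edgeR adjusted p = 0.663), and 0.14 with the GC offset.

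**Figure D2:**
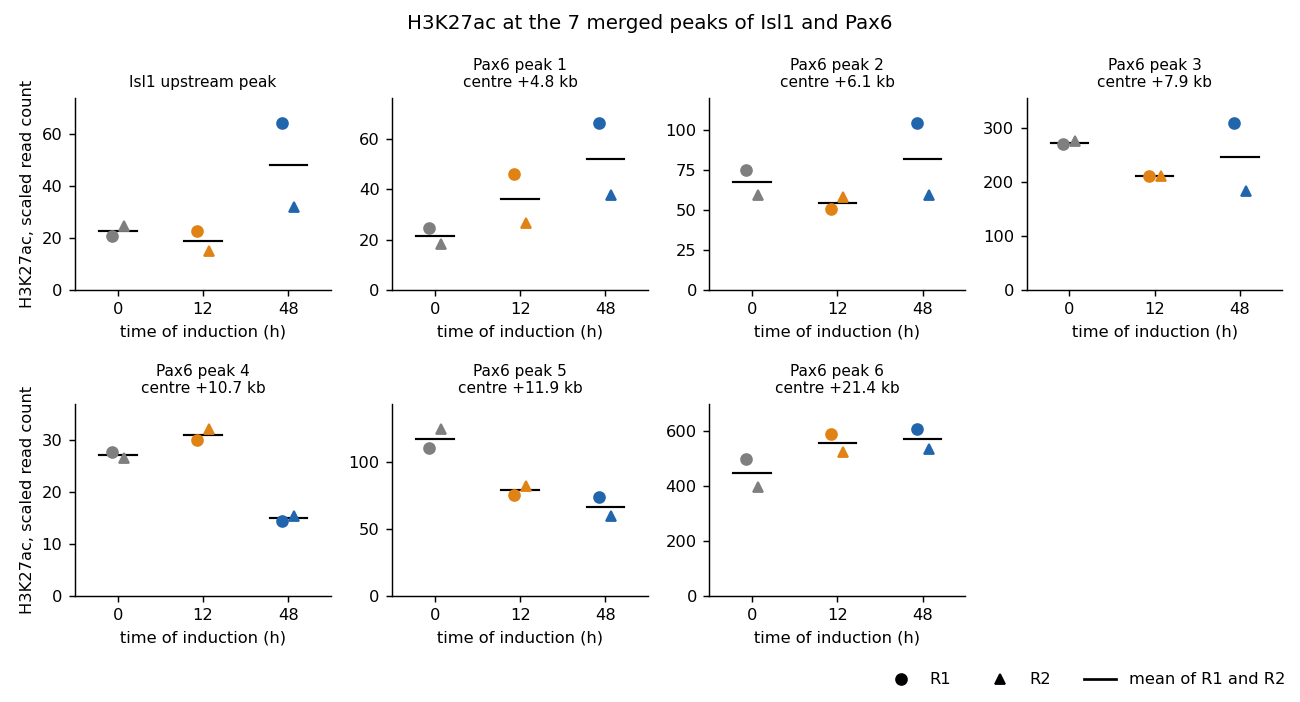
Scaled H3K27ac read counts (y axis, from 0) at the 7 merged peaks of Isl1 and Pax6 after 0, 12 and 48 h of induction (x axis), with circles for R1, triangles for R2 and a line for their mean. Both 48 h libraries lie above the other 4 at Isl1 and below them at Pax6 peaks 4 and 5, while at Pax6 peak 1 R1 at 12 h (46.1) exceeds R2 at 48 h (37.8).

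Pax6, a paired-box factor of eye, forebrain and islet development, was the only member with more than 1 merged peak, and its called peaks went in different directions. The gene runs over chr2:105668900-105697364 on the plus strand, and its 6 peaks are numbered here from 5′ to 3′. Their summed scaled counts were about as high in induced as in uninduced cells, with 1007 (R1) and 899 (R2) before induction, 1001 and 932 after 12 h, and 1176 and 891 after 48 h. The log2 fold change of the sum was 0.02 ± 0.13 at 12 h vs 0 h (edgeR adjusted p = 0.912, over gene loci), and 0.11 ± 0.13 at 48 h vs 0 h (adjusted p = 0.668). The groups overlapped, and R2 at 48 h was the lowest of the 6 libraries and R1 at 48 h the highest.

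Peak 1 of Pax6 (chr2:105673296-105674159) gained H3K27ac by 48 h. It lies 1032 bp from the nearest annotated start, over exons that are untranslated in some transcripts, and holds the CATCTG shown above. Its scaled counts were 24.6 and 18.0 before induction, 46.1 and 26.7 after 12 h, and 66.6 and 37.8 after 48 h, from 17 to 60 reads. Both 48 h libraries and both 12 h libraries were above both 0 h libraries, and R1 was above R2 at each time. The log2 fold change was 1.26 ± 0.36 at 48 h vs 0 h (edgeR adjusted p = 0.0209) and 0.75 ± 0.38 at 12 h vs 0 h (adjusted p = 0.175). The latter passed in edgeR with the GC offset (0.91, edgeR adjusted p = 0.0494). The 48 h gain was not called by DESeq2 (adjusted p = 0.0704), nor without R1 at 48 h (0.82, adjusted p = 0.0964), R1 at 0 h (adjusted p = 0.0832) or R2 at 0 h (adjusted p = 0.277).

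Peak 5 of Pax6 (chr2:105679987-105681517) lost H3K27ac by 48 h. It overlaps annotated coding and untranslated exon sequence and holds neither E-box. The nearest start of a basic protein-coding transcript in GENCODE M21 is 3858 bp away. A RefSeq promoter of Pax6 (chr2:105682213-105682512, plus strand) lies closer, just downstream of the peak. Its scaled counts were 110 and 124 before induction, 75.1 and 81.9 after 12 h, and 73.3 and 59.3 after 48 h. Both 0 h libraries were above the other 4, and all 48 h values were below all 12 h values. The log2 fold change was -0.83 ± 0.25 at 48 h vs 0 h (edgeR adjusted p = 0.025) and -0.57 ± 0.24 at 12 h vs 0 h (adjusted p = 0.104). The loss at 48 h was not called by DESeq2 (adjusted p = 0.146), with only the 4 libraries compared (adjusted p = 0.0607), or without either library of 0 h or of 12 h (adjusted p = 0.0621 to 0.255).

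Peak 4 of Pax6 (chr2:105679272-105679939), next to peak 5, lost H3K27ac between 12 h and 48 h. It holds the CAGATG printed above. Its scaled counts were 27.7 and 26.5 before induction, 30.0 and 32.2 after 12 h, and 14.4 and 15.5 after 48 h, from 13 to 35 reads. The 48 h libraries were the lowest pair, and replicates at each time were close. The log2 fold change was -1.05 ± 0.36 from 12 h to 48 h (edgeR adjusted p = 0.0417) and -0.85 ± 0.37 at 48 h vs 0 h (adjusted p = 0.132). The call from 12 h to 48 h was lost with DESeq2 (adjusted p = 0.153), with the 4 libraries compared (adjusted p = 0.0731), and without any single library other than R2 at 48 h (adjusted p = 0.0694 to 0.247).

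The peaks over the Pax6 starts and the broad downstream peak were not called in any comparison when all 6 libraries were fitted. Peak 2 (chr2:105674578-105675405) overlaps an annotated start, and its scaled counts were 74.9 and 59.4 before induction, 50.4 and 58.0 after 12 h, and 104 and 59.3 after 48 h. Peak 3 (chr2:105675528-105678138) overlaps further starts and held 269 and 275, 210 and 210, and 309 and 182. In both, R1 at 48 h was the highest of the 6 libraries and R2 at 48 h lay below both 0 h libraries, at peak 2 only just. Peak 6 (chr2:105687215-105693346) is 6132 bp wide, covers introns and coding exons in the 3′ part of the gene and also lies within 10 kb of Elp4. It had the highest counts of the locus, 501 and 396 before induction, 590 and 523 after 12 h, and 608 and 537 after 48 h, and its log2 fold change at 48 h was 0.35 ± 0.17 (edgeR adjusted p = 0.186). Both libraries of each later time point were above both of 0 h. With only the 4 libraries compared, peak 3 was called lost at 12 h vs 0 h (-0.37, edgeR adjusted p = 0.0238). Peak 6 was called gained in that fit (0.31, edgeR adjusted p = 0.017).

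Per length, peak 1 of Pax6 moved towards the level of the peaks over the starts, and peaks 4 and 5 ended lowest. Peak 1 rose from a mean level of 24.7 to 60.4 scaled reads per kb between 0 h and 48 h, when peak 2 was at 98.9 and peak 3 at 94.0. Peak 5 went from 76.4 to 43.3, and peak 4 from 40.6 to 22.4. Peak 6 was at 73.1 at 0 h and 93.4 at 48 h. The Isl1 peak, at 39.5 scaled reads per kb at 0 h and 84.5 at 48 h, was then near the level of the Pax6 peaks over the starts. These levels are means of R1 and R2, and at 48 h R1 was well above R2 at Isl1 and at Pax6 peaks 1 to 3.

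**Figure D3:**
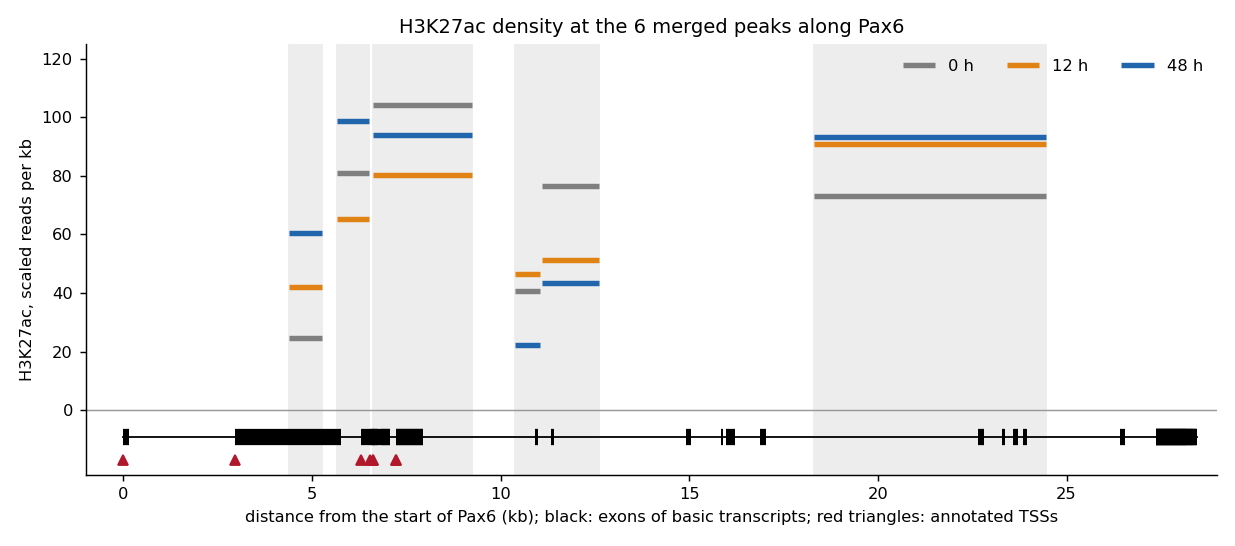
Mean scaled H3K27ac reads per kb (y axis) at the 6 merged peaks along Pax6 (x axis, distance from the gene's 5′ end in kb) at 0 h (grey), 12 h (orange) and 48 h (blue), with shaded peaks, exons of basic GENCODE transcripts as black boxes and the annotated starts of those transcripts as red triangles. Peak 1, the leftmost, goes from 24.7 at 0 h to 60.4 at 48 h, and peak 5, the second from the right, goes from 76.4 to 43.3.

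The share of member peaks with an E-box could not be told from that of all peaks. Either motif lay within 250 bp of the centre in 42.9% of member peaks and 46.7% of all peaks. CAGATG (read on both strands) was found in 3 of 7 member peaks (42.9%, exact binomial 95% interval 9.9% to 81.6%) and in 29.3% of 66783 merged peaks. CAGCTG was found in 0 of 7, for which the exact interval reaches 41.0%, and in 25.2% of all peaks. The 3 peaks with CAGATG were the Isl1 peak and peaks 1 and 4 of Pax6, each of which was called in a comparison, in different directions. Peak 5 of Pax6 was called as well and holds neither motif. Over whole peaks, 5 of 7 (71.4%) held either motif, against 59.9% of all peaks. The added ones were peaks 3 and 6 of Pax6, which were not called in the main edgeR model. They are 2611 and 6132 bp wide, against a median of 676 bp over all peaks, and the shares were not matched for width. In the 250 bases before the RefSeq starts, CAGATG was found at Gcg, Ins1 and Nkx2-2 and CAGCTG at Isl1, among 8 members with an entry. These members have 9 promoters, and over 32851 promoters the shares were 14.4% and 13.0%. Ins2 and Pax4 were not matched in that table.

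The nearest merged peaks of the 8 members without their own were then read, which was decided after these members were seen to have none. The clearest change was at the peak nearest to Gcg (chr2:62422358-62424450), 50.1 kb from Gcg and 10.1 kb from the start of Dpp4, which encodes a peptidase that cleaves the glucagon-like peptide GLP-1. It held 24 (R1) and 22 (R2) reads before induction, 94 and 123 after 12 h, and 107 and 118 after 48 h. The induced libraries were all above both 0 h libraries, and the 12 h and 48 h libraries overlapped. The log2 fold change was 2.15 ± 0.28 at 12 h vs 0 h (edgeR adjusted p = 1.0e-05) and 2.19 ± 0.28 at 48 h vs 0 h (adjusted p = 6.43e-06), and both were called in all 7 alternatives and without each library in turn. Whether this peak acts on Gcg, on Dpp4 or on neither was not tested.

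The peak near Gcg holds CAGATG 2 times and CAGCTG 2 times within 250 bp of its centre. The 300 bases around its centre (chr2:62423255-62423554, plus strand) show 3 of these motifs close together.
Peak nearest to Gcg: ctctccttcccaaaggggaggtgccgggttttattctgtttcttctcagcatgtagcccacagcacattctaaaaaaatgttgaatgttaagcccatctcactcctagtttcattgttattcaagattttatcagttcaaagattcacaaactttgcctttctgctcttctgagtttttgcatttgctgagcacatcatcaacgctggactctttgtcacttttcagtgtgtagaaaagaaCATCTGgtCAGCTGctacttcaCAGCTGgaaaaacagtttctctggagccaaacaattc

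The other nearest peaks were lost at 12 h, thinly covered or not called. The peak nearest to Ins2 (chr7:142610499-142612002), 66.7 kb away with Igf2 as the nearest start, had scaled counts of 112 and 88.1 before induction, 33.2 and 51.5 after 12 h, and 87.7 and 62.8 after 48 h. Its log2 fold change at 12 h vs 0 h was -1.23 ± 0.28 (edgeR adjusted p = 0.0049). This loss held in all 7 alternatives but not without R1 at 0 h or R1 at 12 h. The peak nearest to Pax4 is the promoter of Arf5, a small GTPase gene, and it went from a mean of 196 ± 18.9 (SD, n = 2) at 0 h to 106 ± 8.2 at 12 h (log2 fold change -0.89, edgeR adjusted p = 0.0193). This loss was not called with the GC offset or DESeq2, nor without any 1 of the libraries of 0 h and 12 h. The peak nearest to Pdx1 lies 589 bp from the start of Cdx2, an intestinal homeobox gene, and held 1 and 2 reads before induction, 7 and 18 after 12 h, and 6 and 4 after 48 h. It was called gained at 12 h by edgeR but not by DESeq2 or without either 0 h library or R2 of 12 h, and no fold is given, since the 0 h libraries held 3 reads in all. The nearest peaks of Nkx2-2, Nkx6-1, Ins1 and Sst were not called in either comparison with 0 h.

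**Figure D4:**
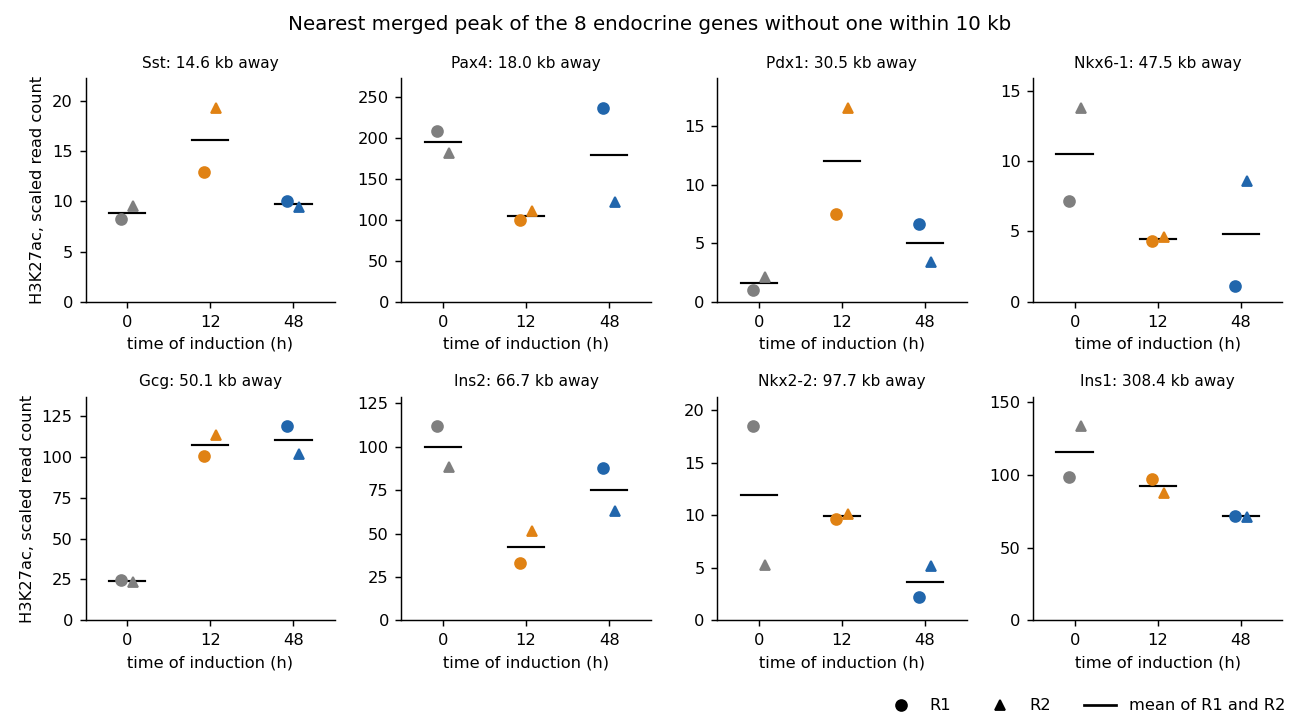
Scaled H3K27ac read counts (y axis, from 0) at the nearest merged peak of each of the 8 members without a peak within 10 kb, after 0, 12 and 48 h of induction (x axis), with circles for R1, triangles for R2 and a line for their mean. Near Gcg, the 4 induced libraries lie above both 0 h libraries, which are at 23.4 and 24.6.

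When the window was widened to 50 kb, 16 further peaks appeared, 7 near Pax4, 5 near Sst, 2 near Nkx6-1 and 2 near Pdx1. Of these, 1 gained and 1 lost H3K27ac at 12 h vs 0 h, against 9.93% and 6.03% of all peaks. They were the peak over Cdx2 coding sequence and the Arf5 promoter peak, both described above. At 48 h vs 0 h, 1 gained and 1 lost it, where the background shares were 8.56% and 5.45%. From 12 h to 48 h, 4 gained and 2 lost it, beside background shares of 10.7% and 8.43%. Of the 4 gains, 3 were the promoter peaks of Gcc1, Arf5 and Snd1 near Pax4, and those of Gcc1 and Arf5 were not called by DESeq2, with only the 4 libraries compared, or in 5 of 6 fits with a library left out.

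Upstream of Pdx1, 47.6 kb from the gene and 33.0 kb from the start of the homeobox gene Gsx1, the peak chr5:147221679-147222354 gained H3K27ac between 12 h and 48 h. Its scaled counts were 12.3 and 8.49 before induction, 12.9 and 8.28 after 12 h, and 42.2 and 42.1 after 48 h, so the 48 h libraries lay far above the other 4, which overlapped. The log2 fold change at 48 h vs 0 h was 2.00 (edgeR adjusted p = 0.000913), and all 7 alternatives called it. Without R2 at 0 h the adjusted p was 0.0641. Upstream of Nkx6-1, a factor of beta cells and of ventral neural progenitors, the peak 48.6 kb from the gene (chr5:101713603-101714793) lost H3K27ac. It held scaled counts of 62.6 and 66.9 before induction, 41.8 and 35.9 after 12 h, and 15.5 and 25.8 after 48 h, falling without overlap at each step. Its log2 fold change at 48 h vs 0 h was -1.61 (edgeR adjusted p = 0.00104), called in all 7 alternatives and without each library in turn. Around Sst, the 2 lost peaks from 12 h to 48 h lay 30.5 kb and 32.1 kb away, nearer to Rtp2, and neither was called by DESeq2.

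To place the members beside other endocrine genes, counts were summed over the merged peaks within 10 kb of each of 16175 genes and tested with edgeR in the same way. Over all gene loci, 7.13% gained and 30.2% lost H3K27ac at 12 h vs 0 h, 6.45% gained and 5.35% lost it at 48 h vs 0 h, and 38.2% gained and 7.74% lost it from 12 h to 48 h. The median log2 fold change of all loci was -0.29, 0.03 and 0.32 in these comparisons. Of the 2 members with a locus sum, 0 were called at 12 h vs 0 h (0 with an unadjusted p under 0.05, 0 by DESeq2) and 0 at 48 h vs 0 h (1 with an unadjusted p under 0.05, 0 by DESeq2). From 12 h to 48 h, Isl1 was called gained (1.35 ± 0.42, edgeR adjusted p = 0.025), but not by DESeq2 or with TMM factors. The share of all gene loci with an unadjusted p under 0.05 is not reported here.

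Among 23 other transcription factors of the endocrine lineage, 15 had a peak within 10 kb. Of these, 3 gained (Onecut1, Insm1 and Hnf4a) and 2 lost H3K27ac at 12 h vs 0 h, and 2 gained and 1 lost it at 48 h vs 0 h. From 12 h to 48 h, 4 gained and 3 lost it (Hnf4a, Mafa and Neurog3). The gains at 48 h vs 0 h were Onecut1 (log2 fold change 2.23 ± 0.21, edgeR adjusted p = 0.000167), an activator of Neurog3 in pancreatic progenitors, and Insm1 (2.04 ± 0.20, adjusted p = 0.000168), a zinc-finger factor of endocrine and neuronal progenitors. Both were called in all 5 alternatives and without each library in turn. The loss was Mafa (-1.02 ± 0.18, edgeR adjusted p = 0.00517), an activator of insulin in mature beta cells, which was not called without R1 or R2 at 0 h. All 6 peaks of Mafa also lay within 10 kb of another gene, as did 2 of 3 peaks of Insm1, so these sums are not theirs alone. Neurog3, the factor that starts the endocrine lineage, had 1 peak, also shared with another gene, with a log2 fold change of -0.52 ± 0.60 at 48 h vs 0 h (edgeR adjusted p = 0.665). The median over the list was 0.38 at 48 h vs 0 h, against 0.03 over all gene loci. Of all loci, 7.13% gained and 30.2% lost H3K27ac at 12 h vs 0 h. The shares were 6.45% and 5.35% at 48 h vs 0 h, and 38.2% and 7.74% from 12 h to 48 h.

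Among genes of hormone production and beta-cell function, edgeR made a single call in the 3 comparisons. Of 14 such genes 8 had a peak, with Pyy and Ppy sharing the same peak. At 12 h vs 0 h 1 of them, the potassium channel subunit Abcc8, was lost (log2 fold change -1.51 ± 0.52, edgeR adjusted p = 0.042) and 0 gained. Over all gene loci, 30.2% were lost and 7.13% gained in that comparison. The single Abcc8 peak, also within 10 kb of another gene, held 17 and 16 reads at 0 h and 6 and 6 at 12 h. At 48 h vs 0 h and from 12 h to 48 h 0 of the 8 genes were called by edgeR, and 0 had an unadjusted p under 0.05. Their log2 fold changes at 48 h vs 0 h had a median of -0.26 and ran from -0.46 (Kcnj11) to 0.21 (G6pc2). Of the exocrine pancreas genes, 7 of 9 annotated had a peak. Ctrb1, a chymotrypsinogen gene, gained H3K27ac at 12 h and at 48 h vs 0 h (1.13 ± 0.16 at 48 h, edgeR adjusted p = 0.00129), as the only exocrine gene called in either comparison, although without R2 at 0 h the 48 h call was lost.

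Most neuronal genes set beside the endocrine ones gained H3K27ac in the same libraries. Of 13 genes 12 had a peak, and 8 gained and 1 lost H3K27ac (Elavl3) at 12 h vs 0 h, while 9 gained and 0 lost it at 48 h vs 0 h and 7 gained and 0 lost it from 12 h to 48 h. Over all gene loci, the shares gained in these comparisons were 7.13%, 6.45% and 38.2%, and the shares lost 30.2%, 5.35% and 7.74%. The median log2 fold change of the neuronal genes at 48 h vs 0 h was 1.33. Ebf2, a factor of differentiating neurons, had the largest value of this list (3.26 ± 0.28, edgeR adjusted p = 0.000108), followed by Neurod4, a relative of NeuroD1 (2.62 ± 0.26). All peaks of Dll3, Tubb3, Hes6 and Elavl3 also lay within 10 kb of another gene, as did 5 of 8 peaks of Nhlh1. Their summed counts are therefore not theirs alone. Alternative fits of this list are not reported here. The lists are of different sizes, were chosen with earlier results of these data known, and were not tested against each other.

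**Figure D5:**
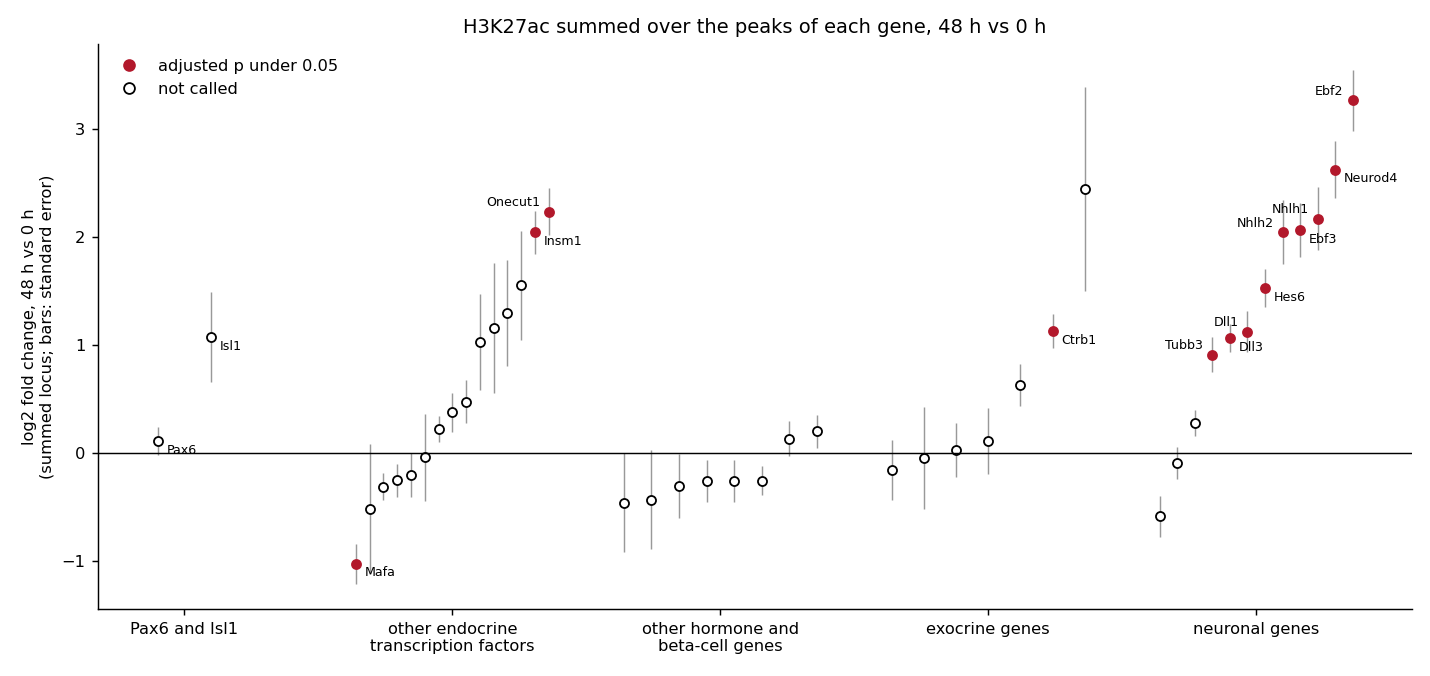
Log2 fold change of H3K27ac at 48 h vs 0 h (y axis), summed over the merged peaks within 10 kb of each gene, for Pax6 and Isl1 and for 4 gene lists (x axis), with standard errors as bars and filled points for an adjusted p under 0.05. Onecut1 (2.23) and Insm1 (2.04) stand above the other endocrine factors, Mafa lies at -1.02, no hormone or beta-cell gene is filled, and 9 neuronal genes are.

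The gene loci whose profile over the 6 libraries was most like that of Pax6 were Ccn1 (Pearson's r = 0.99 on log2 scaled sums) and Psip1 (r = 0.98), out of 14162 loci compared. The Pax6 sum varied over only 0.40 on the log2 scale, and the points share library and depth. Isl1 had too few scaled reads for this comparison.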

How the data were processed

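H3K27ac ChIP-seq of A2Lox mouse ES cells at 0 h, 12 h and 48 h of doxycycline was used, with 2 replicates per time point, and groups came from the sample labels. The Input library was not used, as no column of the table belongs to it. The authors aligned reads to mm10 with Bowtie2, called peaks with MACS2 against Input, merged them over all samples, and deposited raw read counts per merged peak made with QuasR. The submitters' processing notes also name FastQC and SAMtools 0.1.19.

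Gene bodies came from GENCODE M21. Counts were tested with edgeR 4.0.16 (glmQLFit and glmQLFTest in R 4.3.3) in 1 model of all 6 libraries with library totals as offset, 3 residual degrees of freedom and a biological coefficient of variation of 14.9% for peaks and 10.5% for loci. Benjamini-Hochberg adjustment ran over all peaks, or over all gene loci. In counts simulated for 48 h vs 0 h over 66841 peaks, 42 of 100 peaks changed 2-fold and 94 of 100 changed 4-fold were called, with 8 false calls. The simulation gave all libraries the same spread and changed no thinly covered peaks. It therefore does not describe the wider spread between R1 and R2 at 48 h. Alternatives were TMM factors, DESeq2 1.42.0, a minimum of 10 counts in 2 libraries, the replicate number as a block, the 4 libraries compared alone, an offset from a lowess curve (span 0.3) on GC content, the same with the block, each library left out, and windows of 2 kb and 50 kb. The nearest peaks were added after seeing the data. Profiles were compared on log2 scaled counts with a pseudocount of 8. Sequences and E-boxes were read from GRCm38.p6 with pysam 0.24.0, and promoters from RefSeq. Intervals cover counting error only.

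All 10 members were named. So were, for members with peaks, the highest peak, the peak nearest the start and every called peak; the factors of the other endocrine list called at 48 h vs 0 h; and the 2 loci most like a member with 50 or more scaled counts. Further genes and peaks were named after their values were seen. The members and gene lists were chosen with earlier results of these data known. Some genes of these lists are not reported here by name.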

Additional observations from a re-analysis of the deposited data

Results flagged for a closer look

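The change from 0 h at the Isl1 promoter peak differed between the time points: the effect at 48 h minus that at 12 h was 1.35 on the log2 scale in a direct edgeR test (adjusted p = 0.0144), and 1.35 for the Isl1 locus sum, which rests on the same peak (adjusted p = 0.025). At Pax6 peak 4 the effect at 48 h minus that at 12 h was -1.05 by the same test (edgeR adjusted p = 0.0417). Both 48 h libraries lay above both 12 h libraries at Isl1 and below them at Pax6 peak 4.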

How the results depend on the processing

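Of the 7 member peaks, the main model called 0 at 12 h vs 0 h, and 2 in each of the comparisons of 48 h with 0 h and with 12 h. With only the 4 libraries compared these counts were 3, 1 and 1, and with DESeq2 0, 0 and 1. The GC offset, with or without the block, gave 1 at 12 h vs 0 h. In the 50 kb window, which adds 16 peaks, they were 2, 4 and 8. Leaving out each library in turn gave 0 to 3, 0 to 4 and 0 to 5. The 48 h vs 0 h count was 0 without R1 or R2 of 0 h and 4 without R2 of 48 h. The 48 h vs 12 h count was 0 without R1 or R2 of 12 h or R1 of 48 h, and 5 without R2 of 48 h. At 12 h vs 0 h it was 3 without either library of 48 h. Of the 2 gene loci, 1 was called at 48 h vs 12 h, and 0 with TMM factors, with the 4 libraries compared or with DESeq2, while leaving out libraries gave 0 to 2 there and 0 to 2 at 48 h vs 0 h. The number of calls over all 66841 peaks moved with the fit too. It was 10666, 9365 and 12796 in the main model at 12 h vs 0 h, 48 h vs 0 h and 48 h vs 12 h. With the 4 libraries compared it was 21403, 6731 and 8368, and with DESeq2 5199, 4558 and 7428. It also moved when a library was left out. The cause of these differences was not tested. With the replicate number as a block the counts of called member peaks were 0, 3 and 2. Differences between R1 and R2 correlated at -0.036, -0.050 and 0.078 between time points, so no strong shared deviation by replicate number was seen. Whether libraries of the same number share a culture or batch cannot be told from this. Over single peaks, 232 of 273 values kept their side of the threshold, 20 fell short of it, 21 newly passed it, and 0 called values changed direction. The E-box share over whole peaks (71.4%) lay within the interval of the main share. Peaks with 13 to 60 reads limit precision at Isl1 and at peaks 1 and 4 of Pax6.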
